A study of Mus musculus with 14 samples.

Results

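The release of neurotransmitter is carried out by a set of proteins at the presynaptic terminal, and the transcripts of 39 genes for this machinery were followed in mouse cortex. They were taken by symbol from the deposited count table, which lists 34193 gene symbols. All 39 were in the table, and all 39 were among the 13815 genes that passed a filter on low counts. Sequencing of total RNA covered 14 mice of strain C57BL/6J, all 8 weeks old, with cortex as the tissue. There were 7 heterozygous knockouts of Dnmt3a, the gene of a DNA methyltransferase, and 7 wild-type littermates, with 4 females and 3 males in each genotype and no other allele or agent in the labels. Sample titles begin with a number shared by animals of both genotypes, called the title prefix here, and each of the 6 prefixes held animals of 1 sex. Prefixes 046, 048 and 119 held males and prefixes 047, 139 and 141 held females. The labels name no Cre line and do not say what the prefix marks. Each library has its own title number, so animals were taken as separate, although the labels do not say how litters or dissections were shared.

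Synaptic vesicles are filled with transmitter, tethered at the active zone, primed and fused with the membrane when calcium enters. Active zone scaffolds such as Bassoon, Piccolo, RIM and ELKS hold vesicles and calcium channels together, and Munc13 proteins prime the vesicles. SNARE proteins drive fusion, complexins hold them in a clamped state, and synaptotagmins and Doc2 proteins sense calcium. In cortex these genes are expressed in most neurons, and glia hold much less of most of them.

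Promoter sequence was looked at because Dnmt3a writes methyl groups on cytosine, mainly at CG and CA, although methylation itself was not measured in these libraries. RefSeq windows of 250 bases before to 50 bases after a start (GRCm38.p6) were found for 29 of the 39 genes, with 39 windows in all. The median number of CG pairs was 18 per window for these genes and 7 over all 32851 windows of the table. The 250 bases before the start are shown for 3 genes that carry the results below, 5′ to 3′ on the strand of the gene, with each CG in capitals. Unc13c and Rims1 were higher in prefixes 119 and 141 than in the other prefixes and lower in heterozygotes within 119 and 141, and Sv2a was the reverse.
Unc13c, chr9:73969038-73969287, minus strand: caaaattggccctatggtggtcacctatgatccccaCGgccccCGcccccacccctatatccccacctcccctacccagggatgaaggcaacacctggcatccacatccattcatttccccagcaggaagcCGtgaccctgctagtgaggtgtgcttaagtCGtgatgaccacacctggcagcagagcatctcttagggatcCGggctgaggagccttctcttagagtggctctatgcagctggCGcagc
Rims1, chr1:22806159-22806408, minus strand: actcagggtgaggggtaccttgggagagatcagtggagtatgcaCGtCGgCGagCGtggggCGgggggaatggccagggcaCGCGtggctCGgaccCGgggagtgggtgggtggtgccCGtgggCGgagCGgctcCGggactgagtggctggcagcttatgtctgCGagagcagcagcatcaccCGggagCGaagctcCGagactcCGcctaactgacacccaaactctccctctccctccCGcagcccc
Sv2a, chr3:96180977-96181226, plus strand: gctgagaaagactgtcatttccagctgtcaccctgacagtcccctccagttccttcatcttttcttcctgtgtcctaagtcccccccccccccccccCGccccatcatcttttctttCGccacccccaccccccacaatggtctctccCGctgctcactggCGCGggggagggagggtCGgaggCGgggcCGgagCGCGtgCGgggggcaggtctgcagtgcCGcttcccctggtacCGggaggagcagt
Unc13c had 6 CG pairs in its 300-base window, a number that 56.4% of all windows reached. Rims1 had 26, which 16.9% reached, and Sv2a had 17, which 31.4% reached. On either strand, the cAMP response element TGACGTCA was found in 1 window, that of Syn1 (2.56% of the 39 windows and 1.79% of all windows). The letters TATAAA were found in 3 windows, of Sv2b and Rab3b (7.69% against 13.6%). The letters of these 2 motifs do not overlap.

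Some facts of the libraries bear on every comparison. Total counts lay between 8951835 and 14335406 per animal. Dnmt3a itself was at 146 ± 14.2 CPM (counts scaled to library size) in wild type and 99.0 ± 11.4 in heterozygotes (SD, n = 7 each), a log2 difference of -0.57 (edgeR quasi-likelihood test, adjusted p = 0.00774), with ranges of 124 to 164 and 84.3 to 118 that did not overlap. Cortical markers such as Slc17a7 (1054 to 1642 CPM) were present, while the cerebellar granule cell gene Gabra6 had at most 1 read in any animal. The 6 animals of prefixes 119 and 141 (set B) stood apart from the 8 of prefixes 046, 047, 048 and 139 (set A). These sets came from an earlier look at the same data and are not named in the labels, but each holds both genotypes in equal numbers. Mitochondrial transcripts other than ribosomal RNA made up 0.699% ± 0.136 of all reads counted in set A wild types and 0.695% ± 0.0835 in set A heterozygotes (SD, n = 4 each). In set B they made up 1.82% ± 0.269 and 1.37% ± 0.234 (SD, n = 3 each), with 1.97% and 1.99% in wild-type replicates 7 and 6, both of prefix 141. Those 2 wild-type libraries were also at one end of the range for many of the genes below. Leaving both out leaves 1 wild type and 3 heterozygotes in set B. Mitochondrial ribosomal RNA had lower means in set B, at 3.61% ± 0.921 in wild types and 2.57% ± 0.638 in heterozygotes (SD, n = 3 each). In set A it was at 4.27% ± 0.857 and 4.75% ± 0.667 (SD, n = 4 each).

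Per kb of exon, mean levels of the 39 genes ran from 1.26 to 947 CPM per kb. Snap25, a SNARE of the plasma membrane, was highest at 947 ± 80.6 CPM per kb (SD over 14 animals), and its range did not overlap that of any other gene here. Syp, an abundant vesicle membrane protein, followed at 465 ± 69.9, then the fast calcium sensor Syt1 at 354 ± 52.2 and the vesicle SNARE Vamp2 at 341 ± 15.7. The ranges of Syp, Syt1, Vamp2 and Cplx2 each overlapped the next in order down to Cplx1 (266 ± 22.7), and Rab3a lay below Cplx1 without overlap. Among paralogs, Unc13a, the main priming factor of excitatory synapses, was at 42.2 ± 4.91 CPM per kb, against 5.46 ± 1.73 for Unc13c and 2.47 ± 0.227 for Unc13b. Rims1 (40.5 ± 8.11) was above Rims2 (17.4 ± 2.43) and Rims3 (8.13 ± 0.761), with ranges that did not overlap. Rab3a (197 ± 33.8), the main Rab GTPase of synaptic vesicles, was above Rab3c (76.0 ± 5.43) and Rab3b (11.4 ± 1.76). Rab27a, which acts in secretory granules, was lowest at 1.26 ± 0.253 CPM per kb. Exon lengths come from the GENCODE M21 annotation, which is of another build than the counts. In that annotation 37.5% of the exon length of Doc2a lies over Ino80e on the opposite strand and 33.8% of Syp lies over Gm14703. No source used here says whether counting used strand, so reads of such pairs cannot be told apart.

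**Figure D1:**
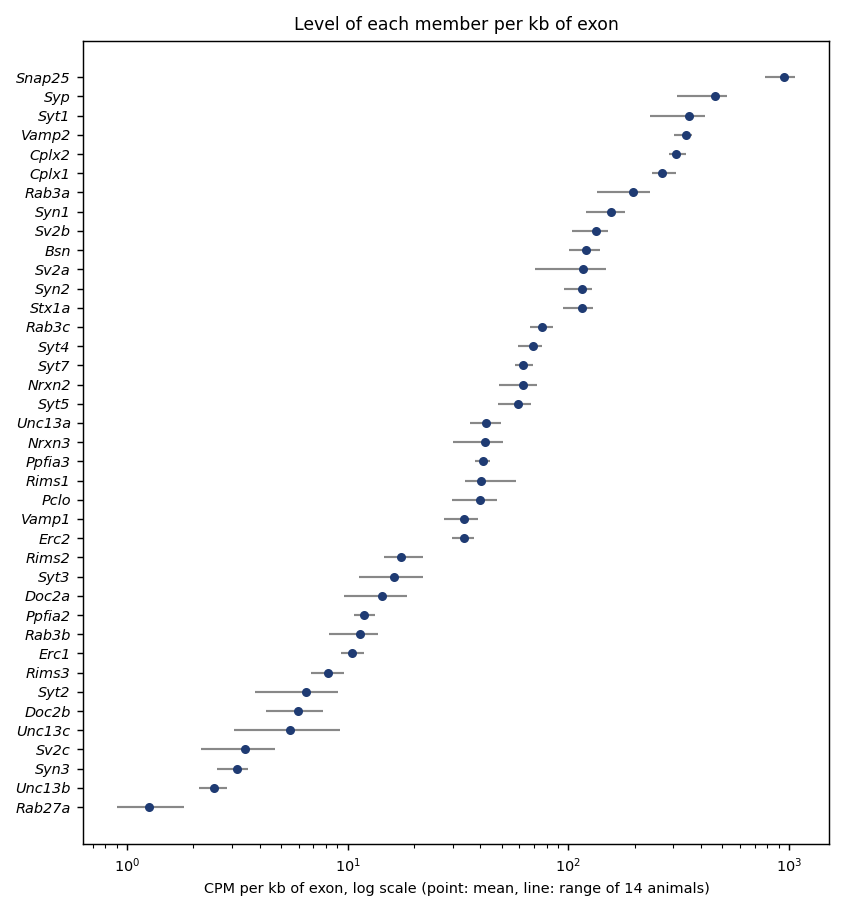
Level of each of the 39 genes in CPM per kb of exon on a log axis, with the point at the mean and the line from the lowest to the highest of 14 animals. Snap25 lies at the top with 947 and Rab27a at the bottom with 1.26 CPM per kb.

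The series asks how loss of 1 Dnmt3a copy changes cortical transcripts. Between genotypes over all 14 animals, with sex as a term, none of the 39 genes passed an adjusted p of 0.05 over all genes tested (edgeR quasi-likelihood test), where 0.0145% of the 13815 genes did. DESeq2 also called 0 of 39, where it called 0.0796% of all genes, and a fit with sex and set as terms called 0 of 39, where it called 0.109% of all genes. Genotype ranges did not overlap for 0 of 39 genes, where 0.0796% of all genes were higher and 0.0434% were lower in heterozygotes without overlap. At an unadjusted p under 0.05 there were 2 genes, Rab27a and Unc13c, and 4% of all genes tested lay under it. The log2 fold change, heterozygous minus wild type, was positive for 27 and negative for 12 of the 39, with a median of 0.015 against 0.0024 over all genes tested. Without the 2 wild-type animals of prefix 141 the median was -0.026 (14 positive, 25 negative), against 0.0012 over all genes, and 0 of 39 genes were called, where 0.00717% of all genes were. In bulk tissue, fewer cells of a type and less RNA per cell cannot be told apart.

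Of the 12 active zone and priming genes, 5 had positive and 7 negative fold changes. Unc13c, the Munc13 isoform best known from cerebellar neurons, lay between 37.7 and 81.2 CPM in wild type (median 47.2) and between 26.8 and 57.2 in heterozygotes (median 39.4). The ranges overlapped, and heterozygotes minus wild type came to -0.40 (log2, SE 0.180, edgeR adjusted p = 0.978). Without the 2 wild-type animals of prefix 141 it was -0.14 (SE 0.174). Rims1, a scaffold that binds Rab3 and calcium channels, ranged from 233 to 398 CPM (median 257) in wild type and from 234 to 316 (median 248) in heterozygotes. Its log2 fold change was -0.17 (SE 0.117) with all animals and 0.015 (SE 0.0931) without those 2, and 2 of the 3 highest values were theirs. Rims3, a short RIM that lacks the Rab3-binding part, went the other way at 0.10 (SE 0.0718), from 46.0 to 58.5 CPM (median 52.8) in wild type and 50.5 to 65.0 (median 53.7) in heterozygotes. The remaining 9 genes of this role, among them Bsn, Pclo, Erc1 and Erc2, had log2 fold changes from -0.11 (Rims2) to 0.057 (Pclo).

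All 4 SNARE genes had fold changes at or above 0, from 0.000373 for Vamp2 to 0.12 for Snap25 (log2, SE 0.0724). Snap25 lay between 1735 and 2255 CPM (median 2037) in wild type and between 1945 and 2395 (median 2264) in heterozygotes. The 2 lowest values were the wild-type animals of prefix 141, and elsewhere the genotypes overlapped. Without these 2 the fold change was 0.057 (SE 0.0651). Complexins were at 0.057 for Cplx1 and -0.043 for Cplx2. Among calcium sensors 7 of 8 were positive. Syt1 ranged from 1137 to 2021 CPM (median 1621) in wild type and from 1668 to 1937 (median 1789) in heterozygotes, with a log2 fold change of 0.16 (SE 0.106). Its 3 lowest values were wild-type animals of set B at or below 1586 CPM, and without the 2 of prefix 141 the fold change was 0.014 (SE 0.0707). Syt2, the fast sensor of many inhibitory neurons, had the largest positive value of the 39 at 0.20 (SE 0.158), and was at -0.0014 (SE 0.120) without the same 2 animals.

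All 7 vesicle protein genes were positive, from 0.016 for Syn2 to 0.14 for Sv2a, and none passed the test. Syn3, a synapsin of low level in adult brain, lay between 13.9 and 18.5 CPM (median 17.0) in wild type and between 16.1 and 19.4 (median 17.5) in heterozygotes, a log2 fold change of 0.10 (SE 0.0798). Of the 4 Rab GTPases 3 were negative. Rab27a ranged from 3.35 to 5.75 CPM (median 4.28) in wild type and from 2.87 to 4.45 (median 3.51) in heterozygotes, with a log2 fold change of -0.36 (SE 0.139, unadjusted p = 0.0190). It was lower in heterozygotes in 5 of 6 prefixes, and the ranges overlapped. Rab3b lay between 27.8 and 46.4 CPM (median 43.2) in wild type and between 31.7 and 43.3 (median 36.4) in heterozygotes (-0.13, SE 0.101). Both neurexins, adhesion proteins that organise the terminal, were positive at 0.0058 for Nrxn2 and 0.11 for Nrxn3. The adjusted p of all these genes was 0.978 or above.

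With the title prefix as a replicate block, 1 of the 39 genes passed the test, where 0.405% of all genes passed in either direction. This was Unc13c, which was lower in heterozygotes, as 0.145% of all genes were. The change was -0.39 on the log2 scale (SE 0.0729, edgeR adjusted p = 0.0234). By prefix, wild type and heterozygote stood at 39.3 and 38.1 CPM in 046, 37.7 and 26.8 in 047, 47.2 and 39.4 in 048, 41.6 and 38.7 in 139, and 65.1 and 39.9 in 119. In prefix 141 the 2 wild-type animals were at 81.2 and 71.5 CPM and the 2 heterozygotes at 57.2 and 48.6. The heterozygous mean of Unc13c was lower in 6 of 6 prefixes, by little in 046 and 139 and by more in 119 and 141. Syn3 and Rab3a were as steady the other way, lower in 0 of 6 prefixes. Such directions were not counted over all genes. An exact two-sided permutation of genotype within prefixes gave p = 0.0104 for Unc13c, the smallest that 192 relabellings can give, and p = 0.0973 over all 3432 splits of the 14 animals. Unc13c was picked for that test by its call, so the p is no independent evidence. The call was lost in 5 of 14 fits that left out 1 animal (adjusted p from 0.00554 to 0.0837, log2 fold change from -0.44 to -0.33). It was lost without wild-type replicates 3 or 5, heterozygous replicates 4, 5 or 6, and both wild-type animals of prefix 141 (-0.32, SE 0.0827, adjusted p = 0.190). Without those 2 animals 0.0932% of all genes were called. In the authors' deposited table Unc13c had the lowest adjusted p of the 39 genes, 0.0862, and the others went up to 0.993.

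**Figure D2:**
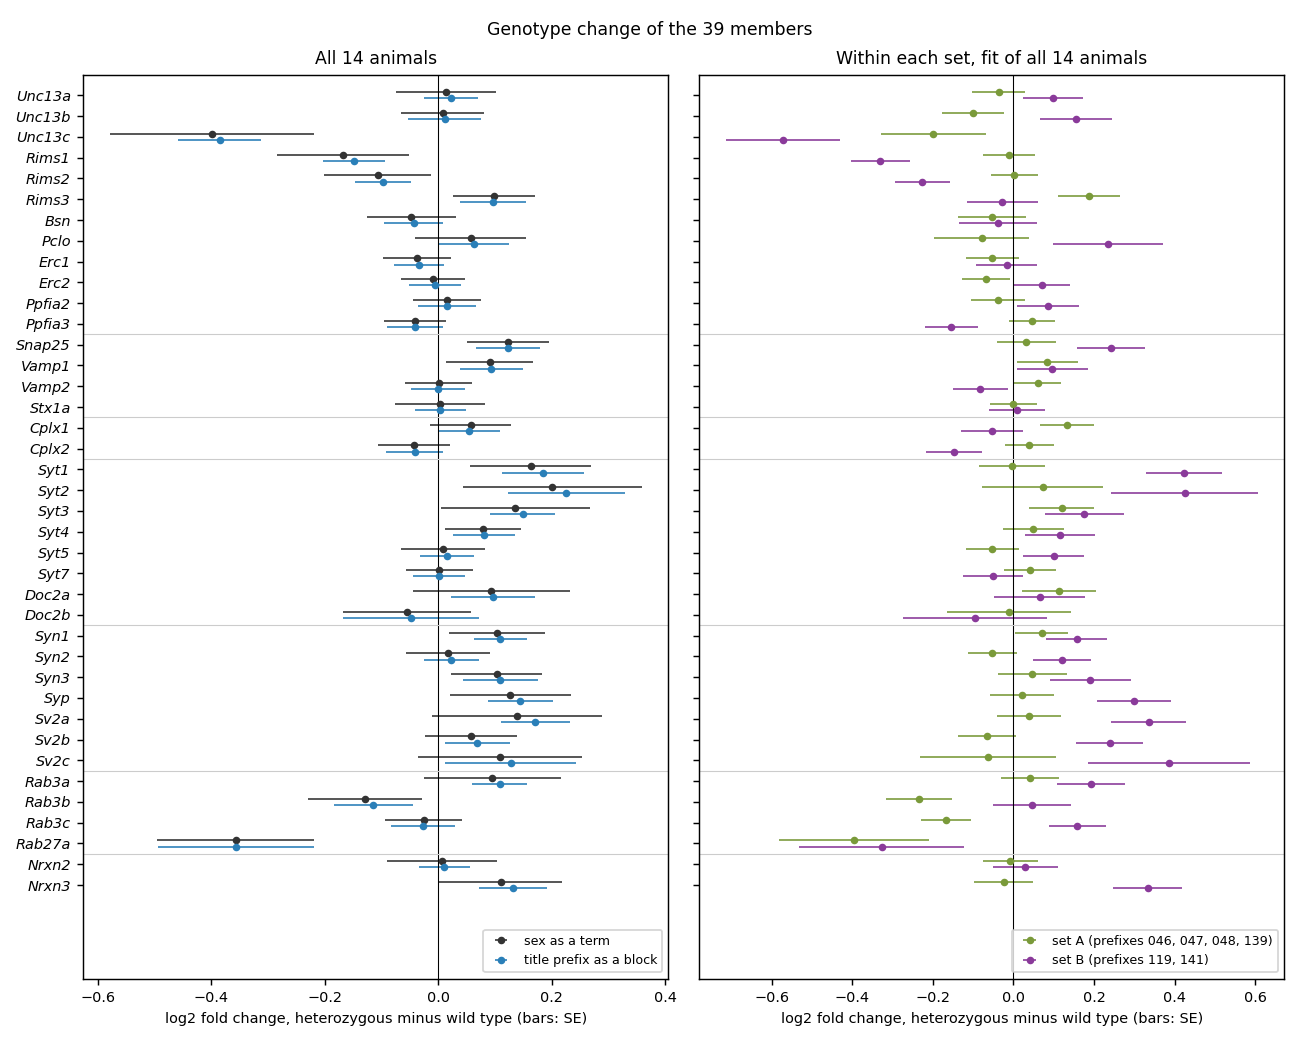
Log2 fold change of each gene, heterozygous minus wild type, with bars of 1 SE. The left panel is over all 14 animals with sex as a term or the title prefix as a block, and the right panel gives set A and set B from a fit of all animals. Unc13c and Rab27a lie farthest to the left, and in set B Syt1 lies at 0.42 and Unc13c at -0.57.

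The title prefix separated more of these genes than the genotype did. Between prefixes within a sex, 20 of the 39 genes (51.3%) passed the test (edgeR, 4 contrasts jointly), where 32.2% of all genes did. In 16 of the 20 the fitted level was lower in prefix 119 than the mean of 046 and 048, and lower in 141 than the mean of 047 and 139. These 16 were Unc13a, Bsn, Stx1a, Syt1, Syt2, Syt3, Syt5, Doc2a, Syn1, Syn2, Syp, Sv2a, Rab3a, Rab3b, Nrxn2 and Nrxn3. Unc13c, Rims1 and Rims2 were higher than these means in both 119 and 141, and Pclo had opposite signs. These directions were not counted over all genes, and 119 and 141 were grouped after an earlier look at the same data. The direction counts thus cannot be read as particular to these genes. The other 19 genes did not pass, with adjusted p from 0.0802 (Sv2b) to 0.985 (Ppfia3).

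Rab3a had the smallest p (adjusted p = 9.18e-06). In set A its 8 values lay between 378 and 419 CPM, in prefix 119 they were 330 and 339, and in prefix 141 they were 242, 247, 295 and 300. No value of set B reached set A. How many of all genes separate the sets in this way was not counted, here or for the genes below. The log2 difference of Rab3a was -0.24 (SE 0.0790) for 119 and -0.57 (SE 0.0644) for 141. Sv2a, a vesicle membrane glycoprotein that binds the drug levetiracetam, followed at adjusted p = 1.57e-05. It lay between 526 and 641 CPM in set A, at 433 and 480 in prefix 119 and at 305, 321, 393 and 459 in prefix 141, again with no overlap. Its log2 differences were -0.37 (SE 0.100) for 119 and -0.67 (SE 0.0813) for 141.

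Unc13c came next by p (adjusted p = 2.80e-05) and was higher. Set A held 26.8 to 47.2 CPM, while prefix 119 held 39.9 and 65.1 and prefix 141 held 48.6 to 81.2. Only the heterozygote of prefix 119 lay within the range of set A, and the log2 differences were 0.34 (SE 0.116) for 119 and 0.83 (SE 0.0968) for 141. Rims1 lay between 233 and 257 CPM in set A and between 259 and 398 in set B, with log2 differences of 0.27 (SE 0.0872) and 0.51 (SE 0.0721). Rims2 was higher as well, at 0.25 (SE 0.0789) and 0.38 (SE 0.0653). Syt3, a calcium sensor of high affinity, was next by p (adjusted p = 3.01e-05), from 41.5 to 58.8 CPM in set A and from 30.3 to 39.02 in set B. Its log2 differences were -0.40 (SE 0.0933) for 119 and -0.55 (SE 0.0775) for 141, without overlap of the sets.

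Of the genes called between prefixes, those higher in prefix 141 were all long, while long and short genes were lower. Unc13c, Rims1 and Rims2 span 489.5, 519.7 and 486.0 kb in the GENCODE M21 annotation and were higher in set B. Pclo (348.5 kb) was higher in 141 only. Syt1 (513.3 kb) and Nrxn3 (1540 kb) were lower. The other lower genes span from 4.0 kb (Rab3a) to 147.1 kb (Syn2). A relation to gene length was not tested. Without the 4 animals of prefix 141 the count was 8 of 39 (Unc13a, Unc13c, Bsn, Pclo, Syt2, Syt3, Doc2a and Sv2a), where 8.62% of all genes were called. Without only its 2 wild-type animals the count was 16, where 23.3% of all genes were. Among the 4 prefixes of set A alone, 0 of 39 passed with edgeR, where 0.0579% of all genes did, and 3 lay under an unadjusted p of 0.05, as did 8.56% of all genes. DESeq2 called Bsn and Pclo there, where it called 0.217% of all genes.

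**Figure D3:**
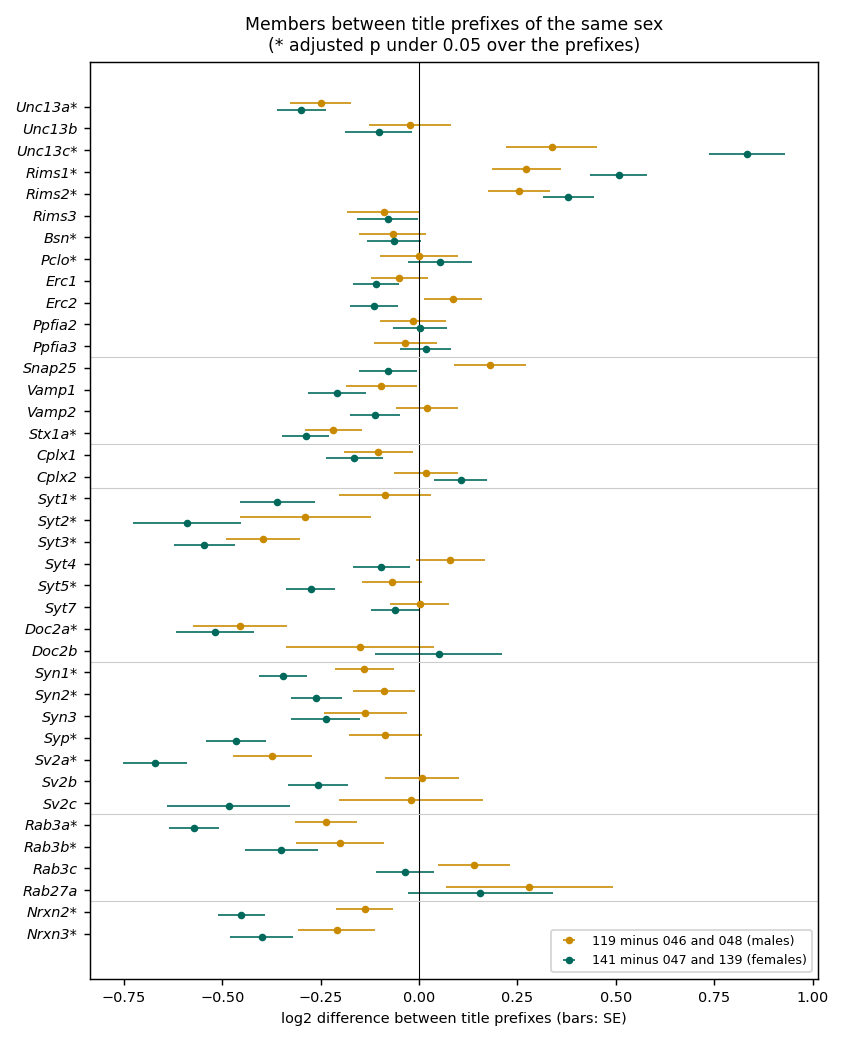
Log2 difference of each gene between title prefixes of the same sex, 119 minus the mean of 046 and 048 (males) and 141 minus the mean of 047 and 139 (females), with bars of 1 SE. Asterisks mark the 20 genes past an adjusted p of 0.05. Sv2a lies at -0.67 and Unc13c at 0.83 for prefix 141.

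Markers of other cells moved with these prefixes. The summed level of 9 astrocyte markers lay between 9622 and 10670 CPM in wild type and 9237 and 10320 in heterozygotes of set A, against 13260 to 17860 and 12450 to 14420 in set B. Of 9 listed pan-neuronal markers, 8 were found. Their sum lay between 2645 and 2882 CPM in wild type of set A and between 2509 and 2822 in set B. Over all animals, Meg3 ranged from 407 to 966.8 CPM, Snhg11 from 234.2 to 572.5 and Eno2 from 423.2 to 839. Nefl varied less, from 323.4 to 397.3 CPM. Single pan-neuronal markers were not split by set, so their sum does not show whether they moved together. The sum of 9 excitatory neuron markers lay between 5495 and 5790 CPM in wild type of set A and between 6658 and 7298 in set B. Camk2a, a kinase of excitatory neurons, made up most of that sum (3123 to 3425 and 4543 to 5587 CPM). The sum of the other 8 markers went the other way. It lay between 2235 and 2449 CPM in wild type of set A and between 1711 and 2115 in set B. Slc17a7 made up most of it, with wild-type means of 1550 CPM in set A and 1187 in set B. Rorb was the exception among the 8, with wild-type means of 70.1 CPM in set A and 81.5 in set B. The sum of 7 inhibitory neuron markers lay between 758 and 808 CPM in wild type of set A and between 550.4 and 702 in set B. Sums in wild type of set A and set B were 3571 to 4113 and 4709 to 6147 CPM for 8 oligodendrocyte markers, and 293 to 387 and 389 to 439 CPM for 7 microglia markers. The part of these cells in the lower vesicle genes and higher Unc13c, Rims1 and Rims2 of set B was not tested.

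Whether the genotype change differed between the sets was asked because they stood apart. In set A the fold changes of the 39 genes were centred at -0.0034 (18 positive, 21 negative), and in set B at 0.096 (26 positive, 13 negative), from 1 fit of all animals. Over all genes the medians were 0.00083 and -0.00040. For the difference between the sets itself, 0 of 39 genes passed with edgeR, where 0% of all genes did. At an unadjusted p under 0.05 there were 11 of the 39, and 14.7% of all genes. DESeq2 called 3 genes (Rab3c, Syt1 and Rims1), where it called 1.52% of all. With the title prefix as a block 9 of 39 passed, where 5.55% of all genes did. Of these, Syt1, Syp, Sv2a, Sv2b, Rab3c, Nrxn3 and Pclo had a more positive change in set B (7 of 39, where 2.84% of all genes did). Rims1 and Unc13c had a more negative one (2 of 39, where 2.71% did).

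Syt1 showed this in single animals. In set A wild-type animals were at 1854, 2021, 1849 and 1621 CPM and heterozygotes at 1789, 1875, 1730 and 1937. In set B wild-type animals were at 1586, 1137 and 1239 and heterozygotes at 1865, 1668 and 1766. Genotypes overlapped in set A, and in set B every heterozygote was above every wild type, within the range of set A. The difference between the sets was 0.43 (SE 0.124, adjusted p = 0.124 with edgeR) and 0.43 (SE 0.0883, adjusted p = 0.00478) with the block.

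Rims1 did the opposite. In set A wild-type animals were at 257, 239, 233 and 235 CPM and heterozygotes at 236, 239, 248 and 234, while in set B wild-type animals were at 317, 380 and 398 and heterozygotes at 259, 316 and 295. Here the heterozygotes of set B were nearer to set A than the wild types were. The difference between the sets was -0.32 (SE 0.0975, adjusted p = 0.140) and had an adjusted p of 0.0122 with the block. Rab3c, a vesicle Rab of neurons, and Erc2 were the 2 genes of 39 whose heterozygotes lay below wild type without overlap in set A, as 1.37% of all genes did. None lay above it, as 1.56% of all genes did. In set A, Rab3c wild-type animals were at 721, 732, 715 and 663 CPM and the heterozygotes at 615, 599, 649 and 659. In set B the order was turned, with wild type at 680, 636 and 626 and heterozygotes at 756, 690 and 722. The difference between the sets was 0.33 (SE 0.0934, adjusted p = 0.120, and 0.0109 with the block).

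Without both wild-type animals of prefix 141, the fit with the block called 0 of 39, where it called 0.0143% of all genes. The difference for Syt1 went from 0.43 to 0.23 (SE 0.120, adjusted p = 0.802), and those for Syp, Sv2a and Sv2b went to 0.10, 0.11 and 0.14. The difference for Rims1 was -0.28 (SE 0.113, adjusted p = 0.701) and that for Rab3c 0.32 (SE 0.114, adjusted p = 0.612). That for Unc13c went from -0.37 (SE 0.111) to -0.49 (SE 0.164, adjusted p = 0.598). In fits with the block that left out 1 animal, 1 to 10 genes passed, and only Syt1 passed in all 14. Shares of all genes are not given for these fits with the block. Without the block, leaving out wild-type replicate 4 gave 7 genes, where 4.06% of all genes passed, and leaving out wild-type replicate 5 gave 8, where 6.13% did.

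**Figure D4:**
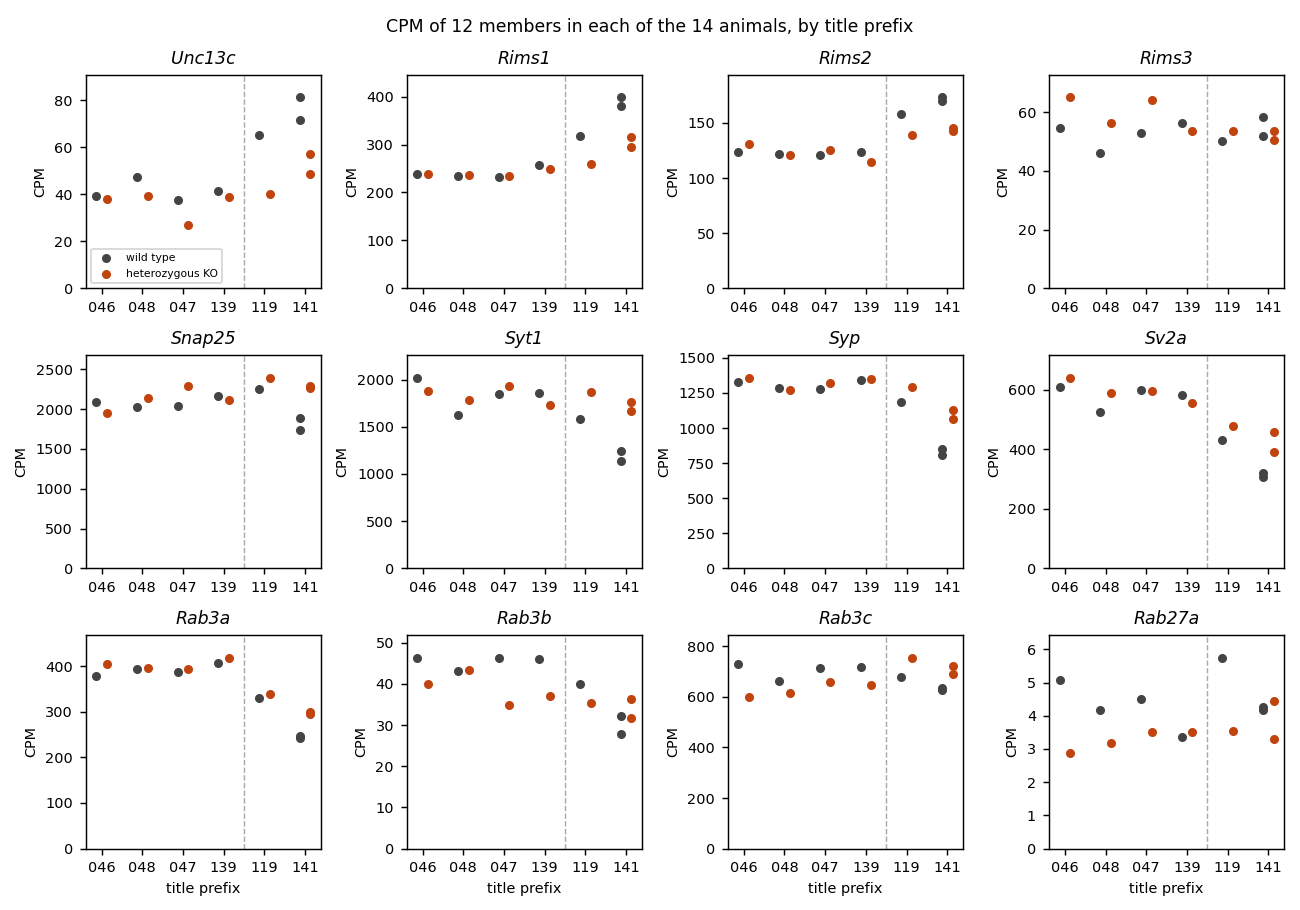
CPM of 12 genes in each of the 14 animals by title prefix, with wild type in grey and heterozygous knockout in orange, and a dashed line between set A (left) and set B (right). In set B Unc13c and Rims1 are high and Syt1, Syp, Sv2a and Rab3a are low, most of all in the 2 wild-type animals of prefix 141.

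Within set B alone, 14 of the 39 genes (35.9%) passed between genotypes, where 16.6% of all genes did. Snap25, Syt1, Syn1, Syp, Sv2a, Sv2b, Sv2c, Rab3a, Rab3c, Nrxn3 and Pclo were higher in heterozygotes (11 of 39, where 8.88% of all genes were). Rims1, Rims2 and Unc13c were lower (3 of 39, where 7.72% of all genes were). The largest of the 14 in each direction were Unc13c (log2 fold change -0.58, SE 0.0740, edgeR adjusted p = 9.42e-06) and Syt1 (0.43, SE 0.0639, adjusted p = 3.98e-05). All 14 had the same direction in prefixes 119 and 141. They were picked by a fit of these same prefixes, so this agreement is no independent evidence. Syp, for example, was at 1188 CPM in wild type and 1291 in the heterozygote of prefix 119, and at 805 and 852 against 1066 and 1131 in prefix 141. Both heterozygotes of prefix 141 were thus below those of set A, which lay between 1275 and 1360 CPM. Genotype ranges in set B did not overlap for Unc13a, Pclo, Snap25, Syt1, Syn3, Rab3c and Nrxn3, higher in heterozygotes (7 genes or 17.9%, where 10.8% of all genes were). The same held for Unc13c, Rims1, Rims2, Ppfia3 and Cplx2, lower in heterozygotes (5 genes or 12.8%, where 11.3% were). In the 6 fits without 1 animal, 9 to 16 genes passed, and Nrxn3, Pclo, Rims1, Rims2, Sv2a, Syp, Syt1 and Unc13c did so in all 6. The lowest count, 9, came without wild-type replicate 6 or heterozygous replicate 6. Shares of all genes are not given for these fits, so the kept calls cannot be read as particular to these genes. Without both wild-type animals of prefix 141, the genotype change in set B rests on the 1 pair of animals in prefix 119. The fit of the other 12 animals with the block, which takes that pair to vary like the rest, then called 0 of 39 genes, where 0% of all genes were called. All 14 kept their sign in it, from -0.70 for Unc13c (SE 0.144) to 0.25 for Nrxn3. The 14 were picked by calls that included this same pair, so the kept signs are no independent evidence. Rab3a went from 0.20 in set B alone to 0.038, and Rims1 from -0.33 to -0.29.

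Other measures moved with genotype in set B. All 9 astrocyte markers were called lower in heterozygotes of set B alone, where 7.72% of all genes were. Calls of the pan-neuronal, inhibitory, oligodendrocyte and microglia markers are not given here. Mitochondrial transcripts other than ribosomal RNA took 1.37% of counts in heterozygotes against 1.82% in wild type. For mitochondrial ribosomal RNA these shares were 2.57% and 3.61%. The excitatory marker sum lay between 5640 and 6221 CPM in heterozygotes, below the wild-type range of 6658 to 7298. Without Camk2a, which was lower (-0.41), it lay between 1939 and 2169 CPM against 1711 to 2115, and Slc17a7 was at 0.12 (adjusted p = 0.175). The 39 genes together took 1.60% and 1.61% of counts in the 2 wild-type animals of prefix 141, 1.84% in the wild type of prefix 119, and 1.78% to 1.91% in the heterozygotes of set B. The part of these measures in the 14 calls was not tested. In set A alone, 0 of 39 passed between genotypes with edgeR, where 0% of all genes did, and 4 of the 39 lay under an unadjusted p of 0.05, as did 4.4% of all genes. The Unc13c change there was -0.21 in that fit, and Syt1 was at -0.0029.

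By sex no gene was called. For the difference between females and males in the genotype change, 0 of 39 passed with edgeR or DESeq2, where 0% of all genes did, and none lay under an unadjusted p of 0.05. Rab27a came nearest, with log2 fold changes of -0.13 (SE 0.171) in females and -0.65 (SE 0.194) in males and a difference of 0.52 (SE 0.258, edgeR adjusted p = 1.00). Its male wild-type animals were at 5.08, 4.16 and 5.75 CPM and its male heterozygotes at 2.87, 3.18 and 3.54, without overlap. The female ranges were 3.35 to 4.52 and 3.31 to 4.45 CPM. How many of all genes had no overlap between the male genotypes was not counted. Rims3 had 0.015 in females and 0.21 in males (difference -0.19, SE 0.143), and Snap25 had 0.20 and 0.025 (difference 0.17, SE 0.146). The SEs of the last 2 differences were nearly as large as the differences. Between the sexes themselves, 0 of 39 genes passed, where 0.00724% of all genes did, and 2 lay under an unadjusted p of 0.05, Doc2b (-0.30, female minus male) and Erc2 (-0.12), as did 6.98% of all genes.

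Beyond the 39, a list of 103 other presynaptic genes (more SNAREs, synaptotagmins, transmitter transporters, calcium channels and endocytic genes) gave 98 that could be tested. By genotype 0 of 98 passed, either without the block (0.0145% of all genes) or with it (0.405%). By title prefix 49 (50%) passed, against 32.2% of all genes. In set B alone 37 (37.8%) passed, against 16.6% of all genes, with 29 higher (8.88% of all genes) and 8 lower in heterozygotes (7.72%). The difference between the sets with the block was called for 9 (9.18%), against 5.55% of all genes. The smallest p upward belonged to Slc17a6, a vesicular glutamate transporter, at 35.0 ± 5.38 CPM in wild type and 42.3 ± 4.40 in heterozygotes (SD, n = 7 each, log2 fold change 0.27, edgeR adjusted p = 0.978), and to Syt12 (0.21). Downward they belonged to Baiap3, a Munc13-like protein of secretory granules, at 7.10 ± 2.68 and 3.69 ± 1.64 CPM (-0.93, adjusted p = 0.883), and to Syngr2 (-0.30). With the block the adjusted p was 0.0780 for both Slc17a6 and Baiap3.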

How the data were processed

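The sample records give genomic DNA as the molecule, while the series type, its design and the protocols describe RNA libraries, and the counts were taken as RNA. Counts of reads per gene symbol for the 14 animals were deposited by the authors as raw whole numbers. The build was mm9, and the tools named are bedtools, STAR, Bowtie and Trim Galore, with neither version nor role, per the submitters' processing notes. The library kit was directional and reads were single-end, per the labels' protocols. The authors also deposited log2 fold changes between genotypes, a score for each (the test statistic), and a raw and an adjusted p-value, made with DESeq per the file headers.

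Counts were analysed with edgeR 4.0.16 (limma 3.58.1, R 4.3.3): filterByExpr by genotype, TMM factors, robust quasi-likelihood fits and F tests, with Benjamini-Hochberg adjustment over all genes tested and a threshold of 0.05. Genotype was tested with sex as a term, prefixes within sex with genotype as a term, and the sets with sex, set and genotype within set. CPM values use TMM-scaled library sizes. Alternatives were DESeq2 1.42.0, RLE factors, no filter on low counts, no sex term, sex and set terms, each set alone, each animal left out in turn and the title prefix as a block. Same-prefix animals of opposite genotype deviated together from their genotype means in 9 of 9 pairs (r across genes from 0.200 to 0.517, rule over 0.1), but they share sex and set too. The code was tested on simulated data.

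The genes, lists and sets were chosen with earlier results of these data known. Genes given with full values were those past the threshold in the fits by genotype or in the authors' table, the 4 with the smallest p in each direction by genotype, the 3 with the smallest p for the difference by sex or by set, and the 4 with the smallest p by prefix. From the other presynaptic genes, those past the genotype threshold and the 2 with the smallest p in each direction were named. Other genes were named after their values were seen. Promoter windows came from RefSeq (GRCm38.p6), another build than the counts.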

Additional observations from a re-analysis of the deposited data

Results flagged for a closer look

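For 2 of the 78 groups examined (39 genes in each genotype), 1 animal lay far from the other 6 by Dixon's criterion, which chance meets in about 1 of 20 groups. Unc13b was at 37.15 CPM in heterozygous replicate 2, while the other heterozygotes lay between 42.89 and 47.21 CPM. Rab27a was at 4.45 CPM in heterozygous replicate 6, while the others lay between 2.871 and 3.539 CPM.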

How the results depend on the processing

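The count of genes called by genotype was 0 of 39 in every fit of all animals without the block (RLE factors, no filter, no sex term, sex and set terms, DESeq2) and without any 1 animal. It was 1 with the title prefix as a block, and 14 in set B alone. With the block it ranged from 0 to 1 when 1 animal was left out and was 0 without both wild-type animals of prefix 141. In set B alone it ranged from 9 to 16. The difference between the sets was called for 0 genes, but for 3 with no filter, 9 with the block and 3 with DESeq2, and for 0 to 8 when 1 animal was left out. With the block it ranged from 1 to 10 when 1 animal was left out and was 0 without both wild-type animals of prefix 141. The 20 genes called between prefixes became 8 without prefix 141 and ranged from 15 to 22 when 1 animal was left out. Between the prefixes of set A the count of 0 became 3 with no filter and 2 with DESeq2. The median genotype fold change ranged from -0.0043 to 0.056 when 1 animal was left out. The median was -0.026 without both wild-type animals of prefix 141 and -0.0013 with the block as well. Of the 8 named genotype fold changes, 4 turned sign: Syt1 to -0.0029 in set A alone, Rims1 to 0.015 without both wild-type animals of prefix 141 (-0.068 with the block as well), Rims3 to -0.026 and Rab3b to 0.051 in set B alone. The replicate block changed no other call by genotype, sex or set. Sex itself could not be fitted with the block, since each prefix holds 1 sex. The cause was not tested for any of these. Counts given without a share of all genes cannot be read as particular to the 39 genes. Depth was lowest for Rab27a, with 31 to 77 reads per animal. Leaving out both wild-type animals of prefix 141 was chosen after seeing the data.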
